A study of Mus musculus with 8 samples.

Results

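Matricellular and adhesive matrix genes encode secreted proteins that cells attach to, or that change how cells attach to the rest of the extracellular matrix. The set comprised 10 genes listed by symbol, Ecm1, Tnc, Fn1, Postn, Thbs1, Thbs2, Sparc, Spp1, Vtn and Svep1. A total of 9 could be followed here, out of 24675 genes with 1 symbol on the array, and Spp1, which encodes osteopontin, was not analysed here. Expression was measured in ventral tissue, under the dorsal aorta, and in dorsal tissue, between the aortic roof and the notochord, of C57Bl/6 mouse embryos at embryonic day 12.5. There were 4 arrays per tissue, labelled as biological replicates 1 to 4, and both tissues were cut by laser microdissection from the same embryos. Picogram amounts of RNA were amplified before hybridisation. The series concerns the niche of blood stem cells under the aorta, and the comparison asks how the tissue below the aorta differs from the tissue above it.

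Fibronectin (Fn1) and vitronectin (Vtn) are adhesive glycoproteins that cells bind mainly through integrins of the alpha-V and beta-1 families. The matricellular proteins tenascin-C (Tnc), periostin (Postn), the thrombospondins (Thbs1 and Thbs2) and Sparc are made in developing mesenchyme and in healing tissue, and modulate adhesion, collagen assembly and growth factor activity more than they bear load. Mesenchyme and smooth muscle around the embryonic aorta are known sources of several of them. Vitronectin is above all a plasma protein made by hepatocytes.

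All levels are log2 RMA intensities, and all differences are ventral minus dorsal on that scale. The array medians lay between 3.59 and 3.65, and a gene was tested if it exceeded the array median on at least 4 of the 8 arrays, which 12416 genes did. Of the 9 genes, 8 passed this filter and Vtn did not. Limma's test with the replicate number as a block and Benjamini-Hochberg adjustment called none of the 8, as it called 0% of all genes tested, and without the block it also called none of the 8, against 0.0322% of all genes. The smallest adjusted p among the 8 was 0.119, that of Ecm1. At an unadjusted p under 0.05, 2 of the 8 were higher in ventral tissue (Ecm1 and Tnc) and 0 were lower, beside 4.08% of all genes tested that were higher and 4.18% that were lower. Their median difference was 0.32, against -0.004 for all genes tested, with 6 of 8 above 0. Without replicate 4, which stands apart as described next, the median was 0.53 for the 8 and -0.01 for all genes tested. The genes were chosen with earlier results of these data known, so these counts describe them and do not test them as a set.

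Sclerotome markers separated the tissues as labelled, and both arrays of replicate 4 held liver transcripts. The neural progenitor list was highest in dorsal replicate 1, and the sympathetic neuron list in ventral replicates 1 and 3. The mean of 15 sclerotome and cartilage genes lay between 4.41 and 4.63 in ventral arrays, against 5.57 to 6.77 in dorsal arrays, without overlap. The mean of 13 liver parenchyma genes was 5.18 in ventral replicate 4 and 6.94 in dorsal replicate 4, and between 3.33 and 3.41 on the other 6 arrays. Among its defining markers, albumin (Alb) stood at 6.70 in ventral replicate 4 and 8.94 in dorsal replicate 4, and alpha-fetoprotein (Afp) at 9.69 and 10.62 on the same arrays, while both lay below 3.8 elsewhere. The mean of 9 erythroid genes was likewise highest on these arrays, at 7.68 in ventral and 8.81 in dorsal replicate 4, and at 6.78 to 7.26 on the others. The mean of 10 spinal cord and neural progenitor genes was 4.92 in dorsal replicate 1 and 3.20 to 3.56 on the other dorsal arrays, against 3.36 to 3.89 in ventral tissue. On dorsal replicate 1, Fabp7 (11.18), Sox2 (7.83) and Zic1 (6.72) were high, while the other genes of the list lay between 2.60 and 4.41. Fabp7 also stood at 8.22, 7.68 and 6.55 in ventral replicates 1, 3 and 4, and Sox2 at 4.93 and 4.51 in ventral replicates 1 and 3. Pax6, Olig2, Dbx1 and Sox1 did not exceed the array median on any array. The mean of 9 sympathetic neuron genes was 6.57 in ventral replicate 1 and 5.81 in ventral replicate 3, against 4.23 to 5.08 on the other 6 arrays. Differences that leaving out replicate 4 turned or moved by over 1.5 times are given both ways. The part of liver, blood or neural RNA in them was not tested. In pieces of tissue, fewer cells of a type and less RNA per cell cannot be told apart.

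**Figure D1:**
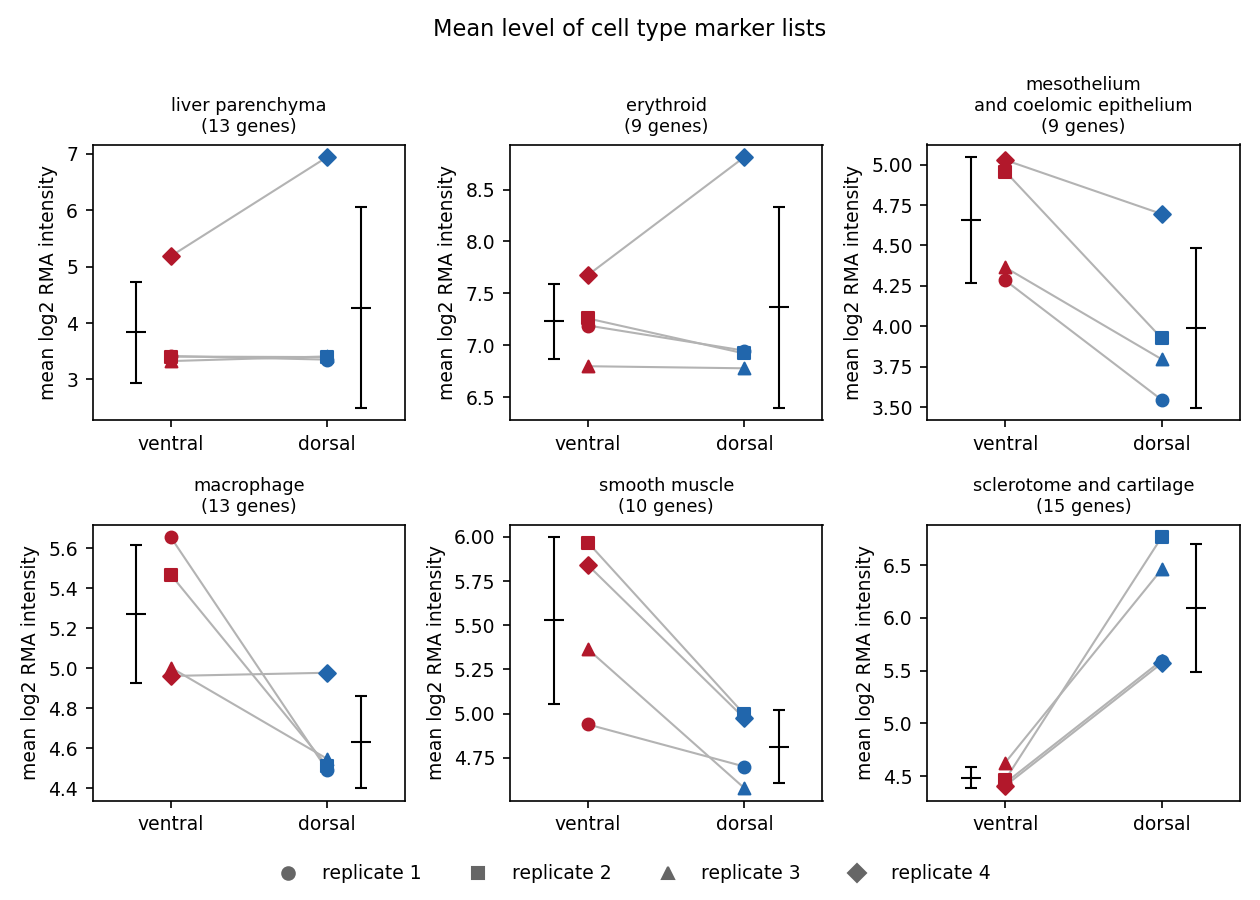
Mean log2 RMA intensity (vertical axis) of 6 lists of marker genes on each array. Points are arrays, grey lines join the arrays of 1 replicate number, and black bars give mean and SD (n = 4 per tissue). Replicate 4 (diamonds) stands far above the other arrays for liver genes, at 5.18 in ventral and 6.94 in dorsal tissue, and sclerotome genes lie below 4.7 on every ventral array and above 5.5 on every dorsal array.

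Ecm1, extracellular matrix protein 1, a secreted glycoprotein that binds perlecan and other matrix proteins, was the member whose tissues did not overlap. Its levels were 6.24, 6.34, 6.31 and 7.47 in ventral replicates 1 to 4, against 5.10, 4.28, 4.66 and 6.16 in dorsal replicates 1 to 4. Every ventral array lay above every dorsal array, and replicate 4 was the highest array of each tissue. Of the 8 tested genes this held for Ecm1 alone and 0 had the reverse, while 2.01% of all genes tested had every ventral array above every dorsal array and 2.38% the reverse. The mean was 6.59 ± 0.59 in ventral and 5.05 ± 0.81 in dorsal tissue (SD, n = 4), a difference of 1.54 (SE 0.21, 95% interval 1.04 to 2.03) or 2.90-fold. The difference ranged from 1.14 to 2.06 over the 4 replicate numbers (7.93% of all genes tested were higher in all 4), and it did not pass the threshold in limma's fit (adjusted p = 0.119). Without the block the SE was 0.42 and limma's adjusted p was 0.342. Without replicate 4 it was 1.61 (SE 0.25, adjusted p = 0.244 in limma's fit). Of the marker lists, that of pericytes and mesenchyme separated the tissues in the same direction without overlap, with a mean (9 genes) of 6.12 to 6.47 in ventral and 5.47 to 6.08 in dorsal arrays. Of its 8 tested genes, 6 differed by more than 0 and 2 by less. The list mean separated the tissues only with Rgs5 in it, which had 4.525 to 8.352 in ventral and 3.676 to 4.321 in dorsal arrays. Cspg4 of the same list went the other way without overlap, with 3.255 to 3.855 in ventral and 4.074 to 4.727 in dorsal arrays. The smooth muscle, macrophage, mesothelium, sympathetic neuron, notochord and endothelium lists were also higher on average in ventral tissue but overlapped. The smooth muscle mean (10 genes) was 4.94 to 5.97 in ventral and 4.58 to 4.996 in dorsal arrays, with all 9 tested genes above 0 in difference. The macrophage mean (13 genes) was 4.96 to 5.66 in ventral and 4.49 to 4.98 in dorsal arrays, with all 13 tested genes above 0, although in replicate 4 it was 4.96 in ventral and 4.98 in dorsal tissue. The mean of the mesothelium and coelomic epithelium list (9 genes) was 4.28 to 5.03 in ventral and 3.55 to 4.70 in dorsal arrays, with 6 of 8 tested genes above 0. The sympathetic neuron mean (9 genes) was 4.23 to 6.57 in ventral and 4.31 to 5.08 in dorsal arrays, with 7 of 8 above 0. The notochord mean (7 genes) was 3.825 to 4.60 in ventral and 3.80 to 4.81 in dorsal arrays, with 5 of 6 above 0. The endothelium mean (10 genes) was 4.70 to 5.04 in ventral and 4.13 to 5.21 in dorsal arrays. Of its 8 tested genes 7 were above 0, or 3 without replicate 4. The part of these cells in the Ecm1 difference was not tested.

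**Figure D2:**
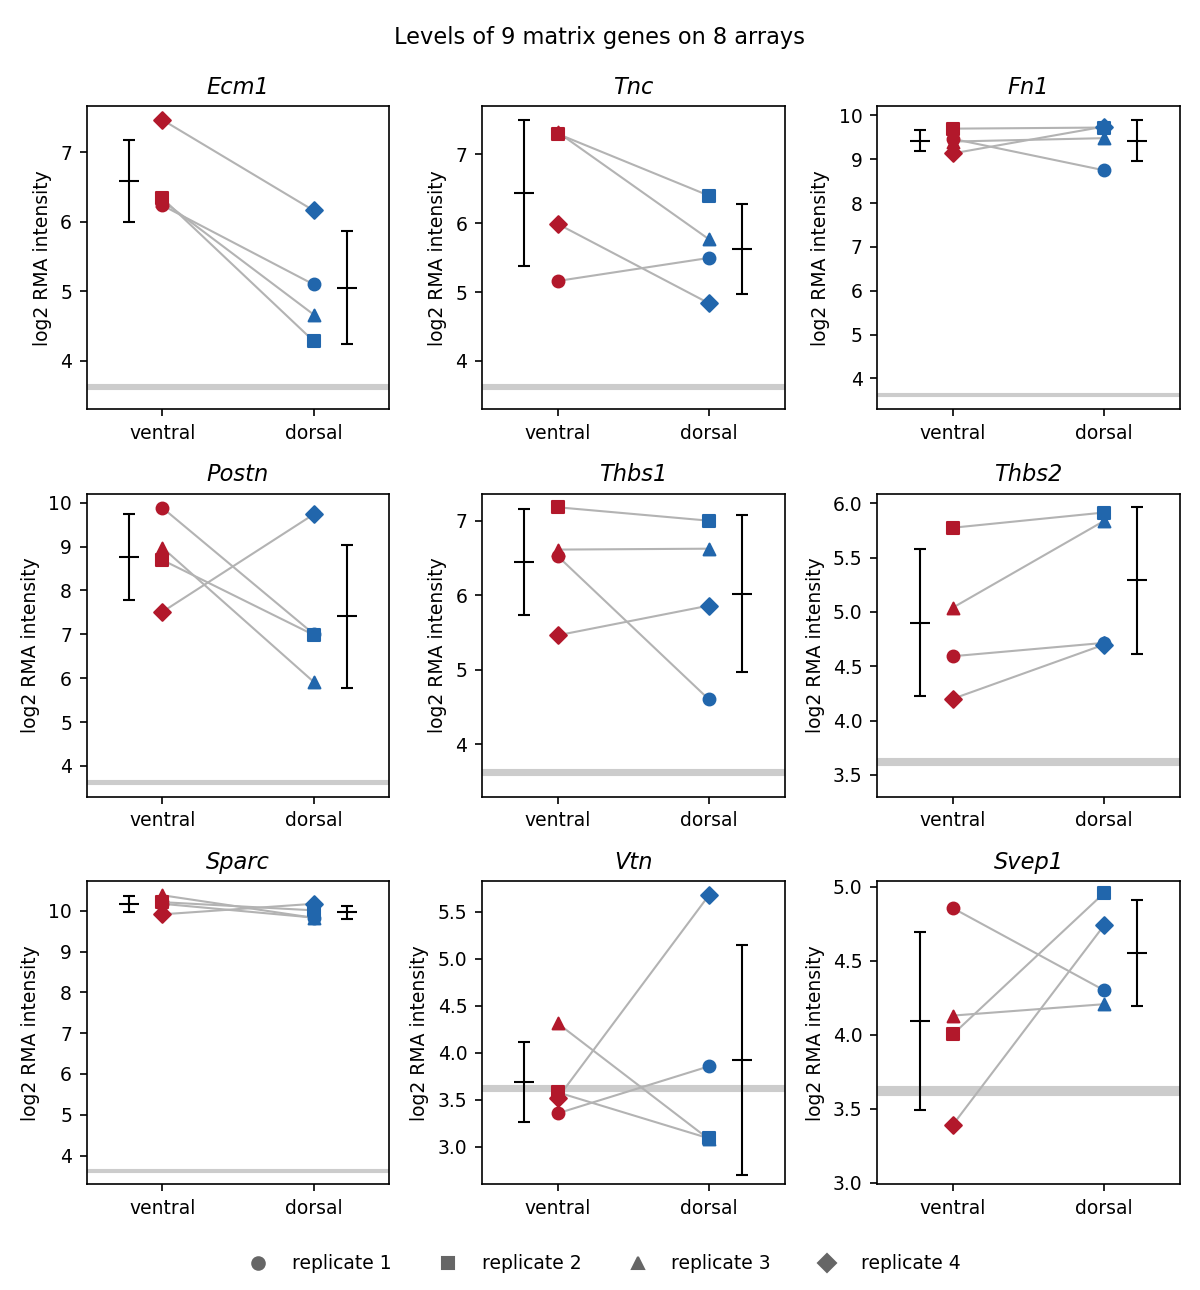
Log2 RMA intensity (vertical axis, a scale per gene) of the 9 genes in ventral (left) and dorsal (right) tissue. Points are arrays, marker shapes give the replicate number, grey lines join the arrays of 1 number, black bars are mean and SD (n = 4), and the grey band spans the array medians (3.59 to 3.65). Ecm1 is higher on the ventral array in all 4 numbers, and the Postn line of replicate 4 runs opposite to the other 3.

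Postn, periostin, a protein with fasciclin domains that binds integrins and promotes collagen cross-linking, was the most variable of the 8 tested genes in dorsal tissue. Its levels were 9.89, 8.70, 8.98 and 7.51 in ventral replicates 1 to 4, against 7.01, 6.99, 5.92 and 9.74 in dorsal replicates 1 to 4. The tissues overlapped, as dorsal replicate 4 was above 3 of the 4 ventral arrays. The SD of 1.63 in dorsal tissue lay at percentile 99.7 of the SDs of all genes tested. Over all arrays the mean was 8.77 ± 0.98 in ventral and 7.41 ± 1.63 in dorsal tissue (SD, n = 4), a difference of 1.36 (SE 0.82, 95% interval -0.57 to 3.28) with limma's adjusted p = 0.739. The difference was 2.88, 1.71 and 3.06 in replicate numbers 1 to 3 and -2.22 in number 4. Without number 4 it was 2.55 (SE 0.29) or 5.85-fold, from 9.19 ± 0.62 in ventral and 6.64 ± 0.62 in dorsal tissue (SD, n = 3), and did not pass the threshold in limma's fit (adjusted p = 0.111). Of the pericyte and mesenchyme list, Col1a1, Dcn and Lum stood at 8.49, 8.79 and 9.885 on dorsal replicate 4. They reached at most 7.43, 6.325 and 8.36 on the other dorsal arrays. Rgs5, Kcnj8, Abcc9 and Pdgfra were lowest on dorsal replicate 4, and Pdgfrb and Cspg4 lay within the range of the other dorsal arrays. The part of mesenchyme or liver RNA in the Postn difference was not tested.

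Of the 8 tested genes, 2 (Postn and Sparc) had 1 sign in replicates 1 to 3 and the opposite sign in replicate 4, a pattern that 14.2% of all genes tested showed. With replicate 4 left out, 3 of the 8 were higher at an unadjusted p under 0.05 (Ecm1, Postn and Sparc) and 0 were lower, beside 4.04% of all genes that were higher. None passed at an adjusted p under 0.05, where 0% of all genes did.

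**Figure D3:**
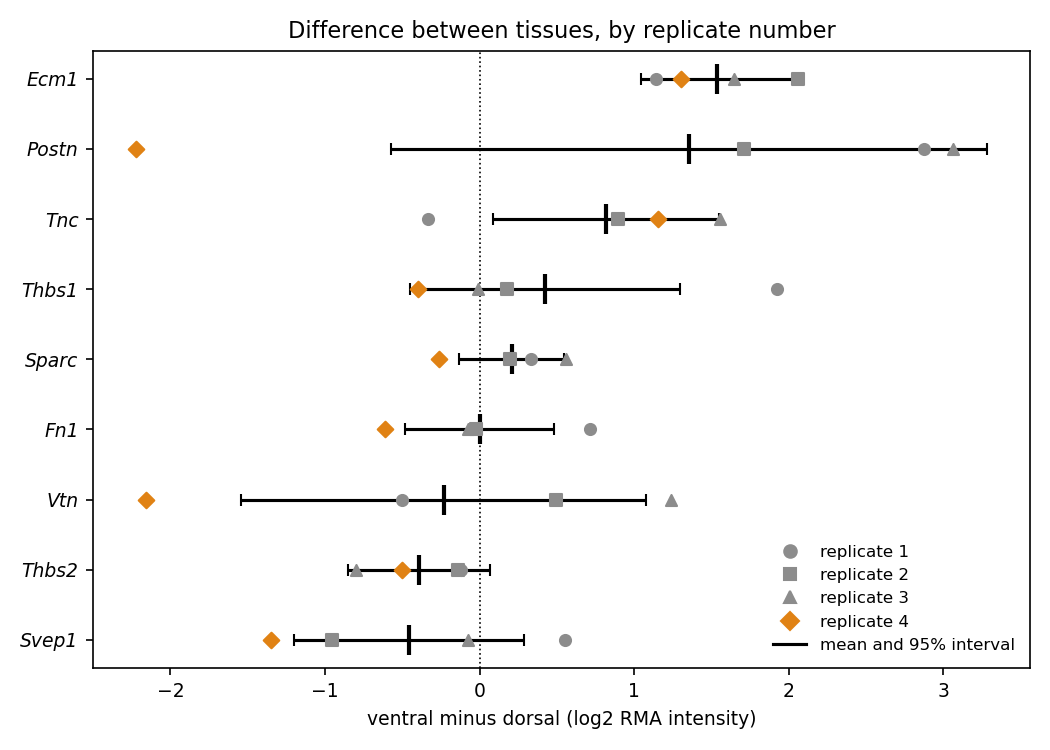
Ventral minus dorsal difference in log2 RMA intensity (horizontal axis) of each gene, ordered by its mean. Points are the 4 replicate numbers, with number 4 in orange, and black bars give the mean and the 95% interval of limma's fit. The interval of Ecm1 runs from 1.04 to 2.03, and number 4 of Postn stands at -2.22 while its other 3 numbers lie above 1.7.

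Because Ecm1 and Postn had the widest differences of the set, their promoter sequence is shown, as the 250 bases before the RefSeq start of each gene in build GRCm38.p6, on the strand of the gene. Capitals mark matches to any of 4 motifs searched on both strands: the TATA box (TATAAA), the GC box (GGGCGG), the AP-1 site (TGANTCA) and the CCAAT box (CCAAT). The window of Ecm1 lies at chr3:95739570-95739819 on the minus strand, and that of the second RefSeq start of Postn at chr3:54360857-54361106 on the plus strand.
Ecm1: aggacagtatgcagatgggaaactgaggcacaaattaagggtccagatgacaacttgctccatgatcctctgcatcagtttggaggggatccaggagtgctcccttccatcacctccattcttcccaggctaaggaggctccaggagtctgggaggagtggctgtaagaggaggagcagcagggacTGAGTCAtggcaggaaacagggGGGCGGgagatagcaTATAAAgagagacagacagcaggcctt
Postn: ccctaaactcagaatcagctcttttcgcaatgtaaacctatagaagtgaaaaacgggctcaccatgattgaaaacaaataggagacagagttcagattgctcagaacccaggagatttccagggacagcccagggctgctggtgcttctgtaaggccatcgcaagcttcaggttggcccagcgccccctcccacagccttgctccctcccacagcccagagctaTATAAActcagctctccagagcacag
The Ecm1 window held 1 AP-1 match 64 to 58 bases before the start, 1 GC box match 42 to 37 bases before it and 1 TATA match 27 to 22 bases before it. The Postn window held 1 TATA match 26 to 21 bases before the start and no match to the other 3 motifs, and the window of the other Postn start held no match to any of the 4. Of 32851 windows of the same length in the table, 12.4% held the TATA letters, 32.7% the GC box, 6.7% the AP-1 site and 33.8% the CCAAT box. Windows were found for 7 of the 9 genes, and Ecm1 was the one of these 7 with an AP-1 match. The TATA letters were also held by windows of Tnc, Thbs2, Vtn and Svep1, and the GC box by those of Tnc. A match is a description of the letters and not evidence that a factor binds there.

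Tnc, tenascin-C, a matricellular protein with many arms that counters cell spreading on fibronectin, had 5.16, 7.30, 7.32 and 5.99 in ventral replicates 1 to 4, against 5.50, 6.40, 5.77 and 4.84 in dorsal replicates 1 to 4. The tissues overlapped, with ventral replicate 1 below 3 of the 4 dorsal arrays. The mean was 6.44 ± 1.06 in ventral and 5.62 ± 0.65 in dorsal tissue (SD, n = 4), a difference of 0.82 (SE 0.31) or 1.76-fold that did not pass the threshold in limma's fit (adjusted p = 0.549). It was higher in 3 of 4 replicate numbers, by up to 1.56, and 0.34 lower in number 1. Without number 1 the difference was 1.20.

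Sparc, which encodes an acidic collagen-binding protein, had the smallest SD of the 8 tested genes in both tissues, and Fn1 had the smallest difference. The levels of Fn1 were 9.46, 9.70, 9.40 and 9.13 in ventral replicates 1 to 4, against 8.75, 9.72, 9.48 and 9.74 in dorsal replicates 1 to 4. The means were 9.42 ± 0.23 in ventral and 9.42 ± 0.47 in dorsal tissue (SD, n = 4), with a difference of 0.001 and a 95% interval of -0.48 to 0.48. Sparc had 10.17, 10.21, 10.38 and 9.91 in ventral replicates 1 to 4, against 9.83, 10.01, 9.83 and 10.18 in dorsal replicates 1 to 4. Its difference of 0.21 (95% interval -0.13 to 0.55) did not pass the threshold in limma's fit (adjusted p = 0.781), and the tissues overlapped. It was positive in replicate numbers 1 to 3 and -0.26 in number 4, and it was 0.36 without number 4 and 0.09 without number 3. The difference of Fn1 was 0.21 without number 4 and -0.24 without number 1. The SDs of Sparc lay at percentile 32.3 of all genes tested in ventral and 23.7 in dorsal tissue. On the linear scale its 95% interval runs from 0.91-fold to 1.46-fold.

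The thrombospondins Thbs1 and Thbs2 are trimeric glycoproteins that bind the receptors Cd36 and Cd47 and restrain vessel growth, and Thbs1 can also activate latent TGF-beta. Thbs1 had 6.53, 7.18, 6.62 and 5.46 in ventral replicates 1 to 4, against 4.61, 7.003, 6.63 and 5.86 in dorsal replicates 1 to 4. The tissues overlapped widely, and its difference of 0.42 (SE 0.37, 95% interval -0.45 to 1.30) rested on replicate number 1, where it was 1.92. Without that number it was -0.08, and without number 4 it was 0.70 (limma's adjusted p = 0.824 with all numbers). Dorsal replicate 1, the lowest array, is the one with the highest neural progenitor list, whose part in the difference was not tested. Thbs2 had 4.59, 5.78, 5.04 and 4.20 in ventral replicates 1 to 4, against 4.72, 5.92, 5.84 and 4.70 in dorsal replicates 1 to 4. Thbs2 was lower in ventral tissue in 4 of 4 replicate numbers, by 0.12 to 0.80, as were 8.46% of all genes tested. The mean difference was -0.39 (SE 0.20) and did not pass the threshold in limma's fit (adjusted p = 0.673). It was -0.25 without number 3.

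Svep1 encodes a large adhesive matrix protein that is a ligand of the integrin subunit Itga9. It had 4.86, 4.00, 4.13 and 3.39 in ventral replicates 1 to 4, against 4.30, 4.96, 4.21 and 4.74 in dorsal replicates 1 to 4. The tissues overlapped, and the ventral array of replicate 4 lay under the array median, a range in which differences are compressed by background. The difference was -0.46 (SE 0.31, limma's adjusted p = 0.780), and it was -0.16 without replicate 4, -0.29 without replicate 2 and -0.79 without replicate 1.

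Vtn had 3.35, 3.58, 4.32 and 3.52 in ventral replicates 1 to 4, against 3.86, 3.09, 3.08 and 5.68 in dorsal replicates 1 to 4. It exceeded the array median on 3 of 8 arrays and was not tested, and its highest array was dorsal replicate 4, the array with the highest liver list. The difference was -0.23 (SE 0.53) over all numbers and 0.41 without replicate 4. The part of liver RNA in the level of Vtn was not tested.

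Other matricellular and adhesive proteins went both ways. Of 30 such genes in a companion list, 22 were tested, with 10 higher and 12 lower in ventral tissue. Of all genes tested, 6112 were higher and 6304 lower. Limma called 0 of the 22 after adjustment over all genes, as it called 0% of all genes tested, and their median difference was -0.04. At an unadjusted p under 0.05, 1 of the 22 was higher and 2 were lower, beside 4.08% and 4.18% of all genes tested. Sparcl1, a relative of Sparc, had 7.97, 8.84, 7.49 and 7.60 in ventral replicates 1 to 4, against 8.25, 9.07, 8.62 and 8.22 in dorsal replicates 1 to 4. It was lower in all 4 replicate numbers, as were 8.46% of all genes tested, with a difference of -0.57 (SE 0.18) and limma's adjusted p = 0.452. Ccn3 (-0.57, SE 0.20) and Ccn2 (-0.35, SE 0.17), members of the cysteine-rich CCN family of matricellular proteins, were also lower in all 4 numbers. The tissues did not overlap for Ccn3, with 4.40 to 4.66 in ventral and 4.74 to 5.51 in dorsal arrays. Of all genes tested, 2.38% were lower in ventral tissue without overlap. Ccn1 differed by -0.07 (SE 0.24), or by -0.15 without replicate 4. Tgfbi, a TGF-beta-induced protein with fasciclin domains like those of periostin, differed by 0.54 (SE 0.21) and was higher in 3 of 4 numbers. Smoc1, a calcium-binding relative of Sparc, differed by -0.61 (SE 0.27), and Npnt, nephronectin, an integrin ligand, by 0.40 (SE 0.17). Npnt differed by 0.26 without replicate 4. Thbs3 differed by 0.07 (SE 0.18), or by 0.03 without replicate 4. Thbs4, Comp and Tnxb lay under the filter, with levels of 2.67 to 3.46 on all arrays.

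None of the receptors listed for these proteins passed the test. Of 22 genes listed, 16 were tested, with 12 higher and 4 lower in ventral tissue. Of all genes tested, 6112 were higher and 6304 lower. Limma called 0 of the 16, as it called 0% of all genes tested. At an unadjusted p under 0.05, 1 of the 16 was higher and 0 were lower, beside 4.08% and 4.18% of all genes tested. The median difference of the 16 was 0.10, or 0.22 without replicate 4. The beta-1 subunit (Itgb1), shared by the main fibronectin receptors, differed by 0.05 (SE 0.16), the alpha-5 subunit (Itga5) by -0.11 (SE 0.18), and the alpha-V subunit (Itgav), which pairs with several beta subunits to bind vitronectin and periostin, by 0.05 (SE 0.25). Without replicate 4 these 3 differences were 0.18, -0.07 and 0.26. Itga3, a subunit of laminin-binding integrins, had 4.25, 3.96, 4.11 and 5.09 in ventral replicates 1 to 4, against 3.59, 3.63, 3.85 and 4.33 in dorsal replicates 1 to 4. It was higher in all 4 numbers, as were 7.93% of all genes tested, with a difference of 0.50 (SE 0.16) and limma's adjusted p = 0.448. Itgb8, the partner of the alpha-V subunit in an integrin that activates TGF-beta, differed by 0.63 (SE 0.30), and Itgb3 by 0.33 (SE 0.24). Itga8 differed by 0.25 (SE 0.19), Itga9 by 0.01 (SE 0.29), the thrombospondin receptor Cd47 by 0.22 (SE 0.24) and Stab1, a scavenger receptor that takes up Sparc, by 0.24 (SE 0.15). Without replicate 4, Itga9 differed by -0.35, as numbers 1 to 3 were below 0 and number 4 stood at 1.09. Cd47 then differed by 0.47, its number 4 being -0.54, and Itga8 by 0.14. Cd44 and Cd36 lay under the filter.

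The last list held TGF-beta ligands, targets and inducers of matrix genes. It shared Tgfbi and Ccn2 with the list of other matricellular and adhesive proteins, and both lists count them. All 16 genes of the TGF-beta list in the table were tested, with 11 higher and 5 lower in ventral tissue. Without replicate 4, 8 were higher. In replicate 4, 5 of the 16 had the sign opposite to replicates 1 to 3, as had 14.2% of all genes tested. Limma called 0 of the 16, as it called 0% of all genes tested. At an unadjusted p under 0.05, 2 of the 16 were higher and 1 was lower, beside 4.08% and 4.18% of all genes tested. The median difference of the 16 was 0.12, or 0.001 without replicate 4. Col1a2, a chain of type I collagen, had 7.67, 7.69, 7.83 and 7.20 in ventral replicates 1 to 4, against 6.95, 7.14, 6.97 and 6.92 in dorsal replicates 1 to 4. Its tissues did not overlap, as for 2.01% of all genes tested in this direction, and its difference of 0.60 (SE 0.16) had limma's adjusted p = 0.363. Twist1, a mesenchymal transcription factor, differed by -0.51 (SE 0.21) and Ltbp1, which tethers latent TGF-beta to fibronectin-rich matrix, by 0.59 (SE 0.28).

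**Figure D4:**
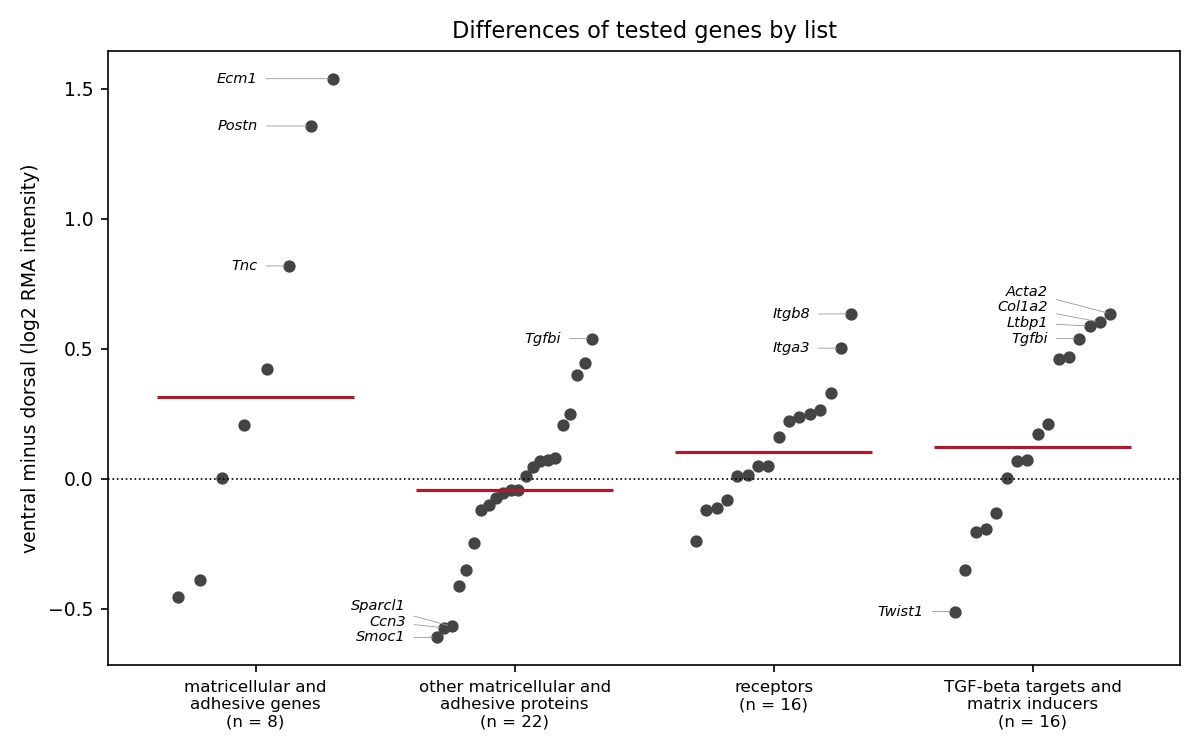
Ventral minus dorsal difference in log2 RMA intensity (vertical axis) of each tested gene in the 4 lists. Points are genes, red lines are list medians, and genes beyond 0.5 in either direction are named. Tgfbi and Ccn2 are shown in both lists that hold them. Ecm1, Postn and Tnc lie above every gene of the 3 companion lists, and no gene of any list passed the adjusted threshold.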

How the data were processed

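Microarrays were run on 4 ventral and 4 dorsal samples. The deposited values are log2 intensities, made with Affymetrix Expression Console and RMA per the submitters' processing notes (versions not given in the sources used here). RMA brings all arrays to 1 distribution, so total RNA cannot be compared. The platform table paired 24675 of 25429 rows with 1 symbol, and the other 754 were not used.

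Genes above the array median on at least 4 of 8 arrays (12416) were fitted with limma 3.58.1 in R 4.3.3 (eBayes with trend and robust estimation), two-sided, with the replicate number fitted as a block, Benjamini-Hochberg adjustment and a threshold of 0.05. The script was tested on simulated data. Vtn was fitted without the filter and has no adjusted p. The block was kept since the labels number both tissues of the same embryos alike, although no label states that a number is 1 embryo. As a check of the pairing, departures from the tissue mean were correlated across genes, giving 0.11, 0.03, 0.02 and 0.12 for arrays of 1 number and -0.13 to 0.10 for others. Only 2 of the 4 exceed 0.1, so the data do not establish that numbers pair embryos. The SE of Ecm1 was 0.21 with the block and 0.42 without it. With the block, p-values start from the spread of the differences between arrays of 1 number. Without it they start from the spread between arrays within a tissue. In both fits eBayes moderates that spread with information from other genes, so SEs, intervals and p-values are not those of the gene alone. For Postn the SD of the differences was 2.461, and the moderated SE was 0.82. The number of arrays limits the precision. No slide or scan date was given.

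Members and lists were chosen with earlier results of these data known. Named genes are all members, the 5 genes of smallest unadjusted p per companion list, fixed relatives and receptors, and defining cell type markers. Other blocks, filters, scalings and variance estimates were tried, and replicates were left out. Promoter sequences are from RefSeq.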

Additional observations from a re-analysis of the deposited data

Results flagged for a closer look

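Among 27 groups of 4 values (9 genes in ventral arrays, in dorsal arrays and as differences over the replicate numbers), 1 held a value far from the others. Ventral replicate 4 had an Ecm1 level of 7.47, and its gap to the next array was 0.916 of the whole range of ventral arrays, above the critical value of Dixon's test. Chance flags about 1 in 20 groups. The Ecm1 level of dorsal replicate 4 was also the highest of its tissue.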

How the results depend on the processing

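No alternative called any of the 9 genes or any gene of the 3 companion lists, and Ecm1, Tnc, Postn, Sparc, Thbs2 and Svep1 kept their direction in every setting that gave them a value. Over all genes tested, limma called 0 with the replicate block, 4 with no replicate block, 4 with a random replicate block and 10 with the stricter filter (mean above the 75th percentile). With 1 replicate number left out it called 0 to 9 genes, 9 of them without number 1, and with 1 array left out and no block 0 to 20, with 20 without ventral replicate 1, 8 without dorsal replicate 1 and 9 without dorsal replicate 4. The adjusted p of Ecm1 was 0.342 with no replicate block, 0.0598 with the stricter filter, 0.0901 with array weights and 0.076 without replicate number 1. Fn1 changed sign to -0.087 after another quantile normalization, and ranged from -0.24 to 0.21 with 1 replicate number left out and from -0.22 to 0.11 with 1 array left out (-0.012 without ventral replicate 1 and -0.0898 without ventral replicate 2). Thbs1 ranged from -0.0771 to 0.70 with 1 number left out and from -0.05 to 0.75 with 1 array left out. Vtn, without the filter, ranged from -0.72 to 0.41 with 1 number left out. With 1 number left out, Postn ranged from 0.79 to 2.55 (highest without number 4), Tnc from 0.57 to 1.20 and Sparc from 0.09 to 0.36. The cause of these shifts was not tested. The stricter filter left no value for Thbs2, Svep1 and Vtn.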
